A study of Mus musculus with 5 samples.

Results

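The comparison set the whole-lung RNA library of mice given particles, allergen and dexamethasone (PM10/OVA/Dex) against the library of untreated mice (Control), and asked which differences of the exposed lung remained under the steroid. Both libraries, 2 of the 5 in the series, came from female wild-type (WT) BALB/c mice, and the PM10/OVA library, exposed without the steroid, and the PM10 library were read beside them. PM10 is inhalable particulate matter, and ovalbumin (OVA) is a protein allergen used to sensitise mice. PM10 went into the nose on 4 occasions during 2 weeks, OVA was first injected into the abdomen and later given by the nose, dexamethasone was injected into the abdomen 3 times during the final week, and the animals were killed 2 days after their last challenge. The PM10/OVA/Dex group therefore had both exposures and the steroid, the PM10/OVA group both exposures, the PM10 group particles alone, and the Control group no treatment according to its label. Not given in the sources used here are ages, doses, a vehicle for the injections, and whether 1 library is 1 animal or a pool. Each group had 1 library, so no difference has a replicate check and none was tested. A further library, PM10/OVA/CPX (a chitinase-1 inhibitor given 6 times over 3 weeks), entered the scaling and the filter on low values.

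Dexamethasone is a synthetic glucocorticoid that binds the glucocorticoid receptor, which then activates genes such as Fkbp5 and Tsc22d3 and represses transcription driven by NF-kappaB and AP-1. In allergic airways, interleukin-4 and interleukin-13 act through STAT6 on epithelium and macrophages and switch on mucins, chitinase-like proteins and eosinophil-attracting chemokines. Inhaled particles add an innate response with acute-phase proteins and chemokines for neutrophils.

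Of 23183 gene symbols, 14305 were measured, which means a mean of at least 1 CPM (counts scaled to a common library size, here with trimmed-mean-of-M-values or TMM factors) over the 5 libraries. Lrp2bp lay just inside this limit with a mean of 1.001 CPM, and Dcstamp just outside it with 0.999998 CPM. Library totals were 11993222 counts for PM10/OVA/Dex, 16036136 for PM10/OVA, 12038105 for PM10 and 16929068 for Control. A count of 1 was worth 0.0841 CPM in the PM10/OVA/Dex library and 0.0577 CPM in the Control library. The label of whole lung was checked against 21 markers of 7 lung cell types, and all 21 were measured. This is a weak check, since measured means only a mean of at least 1 CPM. The surfactant gene Sftpc stood at 12728 CPM or more in every library, the alveolar type 1 marker Ager at 1369 CPM or more, and the endothelial marker Cdh5 at 794 CPM or more. Other markers varied more between libraries. The club cell marker Cyp2f2 ranged from 1049 to 2704 CPM, and the alveolar macrophage marker Marco from 2.02 to 32.6 CPM.

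The Control library stood apart from the other 4 in genes of tissues that border the lung. Heart muscle genes summed to 1010 CPM in PM10/OVA/Dex, 522 in PM10/OVA, 1039 in PM10 and 4530 CPM in Control, and fat, cartilage and skeletal muscle genes were also highest in Control. Squamous epithelium and upper airway genes set both libraries of the comparison apart, with 1232 CPM in PM10/OVA/Dex, 471 in PM10/OVA/CPX, 452 in PM10/OVA, 347 in PM10 and 1995 CPM in Control. The leading member was Bpifa1, a secreted protein of the upper airway, with 464 CPM in PM10/OVA/Dex, 88.8 in PM10/OVA, 74.5 in PM10 and 1264 CPM in Control. Every ratio to Control below has this library as its denominator, and without it no comparison with Control remains. Levels set directly against PM10/OVA do not have it as a denominator.

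**Figure D1:**
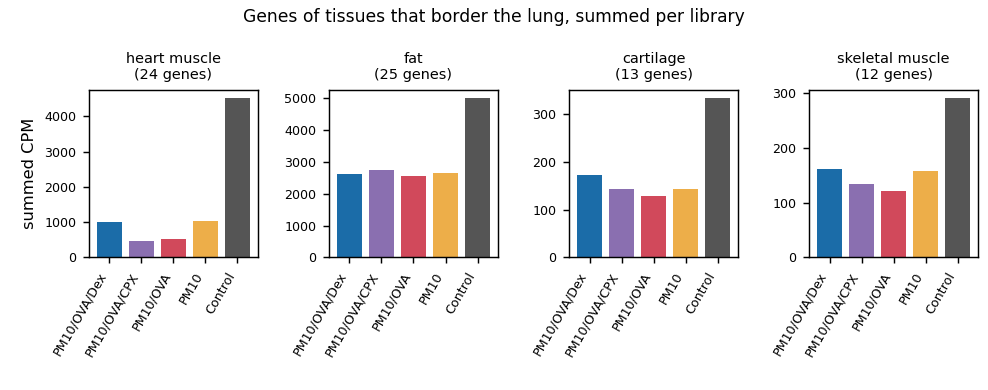
Summed CPM of the measured members of 4 tissue lists, 1 bar per library, from PM10/OVA/Dex at the left to Control at the right; bars start at 0 and have no error because each group had 1 library. Control is the highest bar in all 4 panels, with 4530 CPM for heart muscle genes against 1010 CPM in PM10/OVA/Dex.

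Printed below are 6 promoter windows, shown because their genes are described further on: Retnla and Ccl17 from the type 2 and macrophage genes, Cxcl1, Cxcl2 and Cxcl3 from the neutrophil chemokines, and Isg15 from the interferon-response genes. The first 2 groups are not exclusive, since Ccl17 was also below its PM10/OVA level and the 3 Cxcl genes also remained at least 2-fold above Control. Each window runs 5′ to 3′ on the gene's own strand from 250 bases before to 50 bases after the start annotated by RefSeq on GRCm38.p6. Capitals mark matches on either strand to TTCNNNNGAA, the spacing bound by STAT6, in Retnla and Ccl17, to GGGNNTTTCC, an NF-kappaB type motif, in the 3 chemokine genes, and to TTTCNNTTTC, an interferon-response type motif, in Isg15. The genes were picked after their values and matches had been seen.
Retnla: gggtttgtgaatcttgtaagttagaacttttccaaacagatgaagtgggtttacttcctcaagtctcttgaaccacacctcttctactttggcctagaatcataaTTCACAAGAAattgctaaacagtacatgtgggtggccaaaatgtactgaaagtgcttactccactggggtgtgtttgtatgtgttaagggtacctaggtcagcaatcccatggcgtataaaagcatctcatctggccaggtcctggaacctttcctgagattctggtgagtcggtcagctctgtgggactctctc
Ccl17: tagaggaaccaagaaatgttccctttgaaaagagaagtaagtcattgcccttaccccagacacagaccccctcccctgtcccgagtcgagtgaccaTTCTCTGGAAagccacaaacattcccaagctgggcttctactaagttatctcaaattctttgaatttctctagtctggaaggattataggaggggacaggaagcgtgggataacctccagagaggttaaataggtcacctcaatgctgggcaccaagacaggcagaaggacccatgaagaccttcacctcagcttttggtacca
Cxcl1: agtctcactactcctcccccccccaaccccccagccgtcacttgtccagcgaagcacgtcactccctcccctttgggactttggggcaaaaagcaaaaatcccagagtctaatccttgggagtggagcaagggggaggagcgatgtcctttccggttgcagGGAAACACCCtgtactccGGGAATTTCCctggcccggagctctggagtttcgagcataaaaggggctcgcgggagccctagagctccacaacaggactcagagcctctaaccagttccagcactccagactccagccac
Cxcl2: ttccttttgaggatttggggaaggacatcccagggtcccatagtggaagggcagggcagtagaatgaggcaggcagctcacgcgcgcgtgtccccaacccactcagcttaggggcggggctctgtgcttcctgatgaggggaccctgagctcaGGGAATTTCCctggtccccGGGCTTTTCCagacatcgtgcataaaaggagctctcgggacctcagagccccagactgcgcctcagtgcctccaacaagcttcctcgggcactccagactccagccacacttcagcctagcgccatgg
Cxcl3: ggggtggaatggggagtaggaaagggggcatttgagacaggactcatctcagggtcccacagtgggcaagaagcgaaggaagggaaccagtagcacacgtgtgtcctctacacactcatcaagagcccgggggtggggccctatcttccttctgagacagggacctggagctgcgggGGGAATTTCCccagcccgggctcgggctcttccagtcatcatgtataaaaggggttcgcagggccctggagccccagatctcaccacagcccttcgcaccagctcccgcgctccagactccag
Isg15: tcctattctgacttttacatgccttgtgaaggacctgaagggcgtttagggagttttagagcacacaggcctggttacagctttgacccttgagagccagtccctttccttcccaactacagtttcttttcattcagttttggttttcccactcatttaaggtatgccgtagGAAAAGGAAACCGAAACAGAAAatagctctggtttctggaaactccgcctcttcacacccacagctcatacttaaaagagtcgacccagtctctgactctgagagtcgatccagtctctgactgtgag

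The windows lie at chr16:48842359-48842658 for Retnla, chr8:94810203-94810502 for Ccl17, chr5:90890995-90891294 for Cxcl1, chr5:90903649-90903948 for Cxcl2 and chr5:90785851-90786150 for Cxcl3, all on the plus strand, and at chr4:156200769-156201068 for Isg15 on the minus strand. Counting the first transcribed base as +1, the matches began at -145 in Retnla, -154 in Ccl17, -89 and -71 in Cxcl1, -97 and -78 in Cxcl2, and -73 in Cxcl3. The 3 matches in Isg15 began at -78, -72 and -66 and overlapped each other. TTCNNNNGAA was found in 6.95% of all 32851 promoter windows in the table, GGGNNTTTCC in 1.63%, TTTCNNTTTC in 3.44%, and GNACANNNTGTNC, a glucocorticoid-receptor type motif, in 0.475%. A stretch may match more than 1 of these motifs, and a match describes letters, not binding.

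On log2(CPM + 1), 225 genes (1.57% of the 14305) exceeded their Control level by at least 2-fold in PM10/OVA/Dex, and 288 genes (2.01%) were at least 2-fold lower. The genes highest against Control included airway mucus and type 2 genes, and those lowest included heart and cartilage genes. Over all measured genes the median log2 ratio was 0.01, and 51.2% of them lay above Control in PM10/OVA/Dex. No such share was taken for PM10/OVA/Dex against PM10/OVA. Counts of list members above or below PM10/OVA therefore have no background beside them. Such counts were also uneven in other lists. Housekeeping genes were below PM10/OVA in 23 of 28 and above it in 5, and respiratory chain genes below it in 25 of 30 and above it in 5. Endothelial genes were above it in 22 of 29 and below it in 7. A count against PM10/OVA is therefore not particular to its list. The same 2-fold limits gave 454 genes higher (3.17%) and 390 lower (2.73%) in PM10/OVA than in Control. These comparisons share the Control library. Control was the lowest of the 5 libraries for 199 of the 225 higher genes (88.4%), and the highest for 261 of the 288 lower genes (90.6%). These genes were selected by their ratio to Control, so both shares were largely fixed in advance. No such share was taken over all measured genes. In bulk tissue, more cells of a type and more RNA per cell cannot be told apart.

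Of the 454 genes higher in PM10/OVA, 168 (37.0%) were still at least 2-fold higher than Control in PM10/OVA/Dex. A further 211 were higher by between 0.32 and 1 on the log2 scale, 67 were within 0.32 of Control, and 8 were more than 0.32 below it. The 168 genes made up 74.7% of the 225. The median log2 ratio of the 454 genes was 0.77 in PM10/OVA/Dex and 1.40 in PM10/OVA, and 48 of them lay farther above Control with the steroid than without it. Of the 390 genes lower in PM10/OVA, 207 (53.1%) remained at least 2-fold lower in PM10/OVA/Dex, which was 71.9% of the 288. Their median log2 ratio was -1.07 in PM10/OVA/Dex and -1.59 in PM10/OVA. The heart, fat, cartilage and skeletal muscle lists held 52 of the 288 lower genes and none of the 225 higher genes. Left out of the count, these lists reduced the lower genes to 236 and those that remained lower to 156 of 333 (46.8%).

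**Figure D2:**
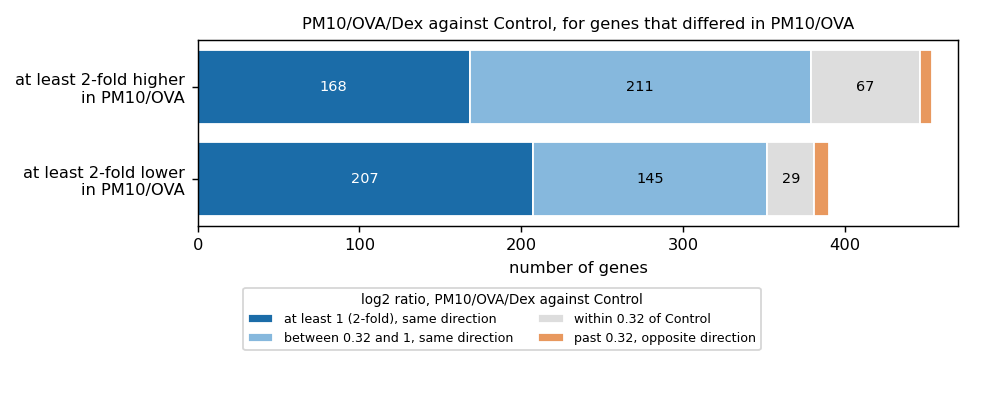
Number of genes (x axis) that were at least 2-fold higher or lower in PM10/OVA than in Control, split by their ratio of PM10/OVA/Dex to Control. Of the genes higher in PM10/OVA, 168 remained at least 2-fold higher under dexamethasone, and of those lower, 207 remained at least 2-fold lower.

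Mucous cell genes were the group farthest above Control among airway epithelial lists. Past 2-fold were 9 of 16 measured members, all of them higher in PM10/OVA/Dex, with a median log2 ratio of 1.41, against 0.99 in PM10/OVA. In 13 of the 16 the level was higher in PM10/OVA/Dex than in PM10/OVA. The list was higher still in the library with the chitinase-1 inhibitor, with a summed level of 3233 CPM in PM10/OVA/Dex, 7670 in PM10/OVA/CPX, 1462 in PM10/OVA, 731 in PM10 and 510.0 CPM in Control. The median against Control was 2.28 with a mean of at least 5 CPM and 0.91 with no filter. Upper airway genes summed to 1232 CPM in PM10/OVA/Dex, 471 in PM10/OVA/CPX, 452 in PM10/OVA, 347 in PM10 and 1995 CPM in Control. The part of upper airway tissue in the mucous cell levels was not tested. Clca1, which encodes a secreted protease of goblet cells, had the highest ratio of all named genes. It stood at 1633 CPM in PM10/OVA/Dex, 313 CPM in PM10/OVA, 7.12 CPM in PM10 and 1.61 CPM in Control. The PM10/OVA/CPX library was above all of these, at 5154 CPM. PM10/OVA/Dex was 1011-fold above Control (95% counting interval 699 to 1522, log2 ratio 9.29). The gene lies at chr3:145003817-145032776.

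Muc5ac, the inducible gel-forming airway mucin, had 92.9 CPM in PM10/OVA/Dex, 30.6 in PM10/OVA, 11.0 in PM10 and 4.09 CPM in Control, a 22.7-fold difference from Control (17.8 to 29.3). Fcgbp, a mucus-associated protein, was at 119 CPM in PM10/OVA/Dex, 36.3 in PM10/OVA, 7.54 in PM10 and 19.8 CPM in Control. Itln1, the lectin intelectin-1, had 9.17 CPM in PM10/OVA/Dex, 3.91 in PM10/OVA, 0.994 in PM10 and 0.750 CPM in Control. In all 3 genes PM10/OVA/Dex was above PM10/OVA. Tff2, a trefoil peptide secreted with mucus, was 7.16-fold above Control (5.84 to 8.85). Slc26a4, the anion exchanger pendrin, was the exception among the leading members, with 31.4 CPM in PM10/OVA/Dex, 90.7 in PM10/OVA, 19.6 in PM10 and 1.04 CPM in Control. It was still 30.2-fold above Control (18.9 to 51.6).

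Most genes of the chitinase family were also above Control. Past 2-fold and higher in PM10/OVA/Dex were 4 of 6 measured members, with a median log2 ratio of 1.68, against 1.57 in PM10/OVA. Chil3 (Ym1) had 1427 CPM in PM10/OVA/Dex, 510 in PM10/OVA, 309 in PM10 and 108 CPM in Control, which was 13.2-fold (12.5 to 13.8). In PM10/OVA/CPX it had 4455 CPM, and the family summed to 3319 CPM in PM10/OVA/Dex, 8220 in PM10/OVA/CPX, 3796 in PM10/OVA, 2486 in PM10 and 739 CPM in Control. Chil4 (Ym2) had 40.8 CPM in PM10/OVA/Dex, 3.53 in PM10/OVA, and 0 counts in PM10 and in Control. With 3 counts set for Control the PM10/OVA/Dex level was 236-fold higher, and the exact interval began at 191-fold. Chil3 and Chil4 are near-identical neighbours on chromosome 3, so how reads were split between them is uncertain. Chia1, the acidic mammalian chitinase, had 268 CPM in PM10/OVA/Dex, 157 in PM10/OVA, 57.9 in PM10 and 79.9 CPM in Control. Chil1 (BRP-39) ran the other way against PM10/OVA, at 1533 CPM in PM10/OVA/Dex, 3067 in PM10/OVA, 2065 in PM10 and 499 CPM in Control.

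Type 2 chemokines remained above Control. Ccl8, which in mice attracts CCR8-bearing T helper 2 cells, had 94.8 CPM in PM10/OVA/Dex, 69.3 in PM10/OVA, 29.9 in PM10 and 1.5 CPM in Control, a 63.2-fold difference (42.9 to 97.2). Ccl11 (eotaxin-1), the eosinophil chemoattractant, had 25.5 CPM in PM10/OVA/Dex, 27.3 in PM10/OVA, 4.97 in PM10 and 4.90 CPM in Control. The CCR4 ligand Ccl17 had 8.66 CPM in PM10/OVA/Dex, 14.1 in PM10/OVA, 4.64 in PM10 and 1.10 CPM in Control. Ccl22, the other CCR4 ligand, had 6.90 CPM in PM10/OVA/Dex, 21.7 in PM10/OVA, 10.9 in PM10 and 2.19 CPM in Control. Ccl8 was above its PM10/OVA level, Ccl11 close to it, and Ccl17 and Ccl22 below it. Of the 15 measured members of the type 2 list, 4 were at least 2-fold higher than Control, against 7 in PM10/OVA, and the median log2 ratio was 0.34 in PM10/OVA/Dex and 0.76 in PM10/OVA. The cytokine genes themselves were under the limit of measurement: Il4 had 11 counts in PM10/OVA/Dex, 15 in PM10/OVA, 2 in PM10 and 3 in Control, and Il13 had 2, 7, 2 and 0 counts in the same order. Rnase2a, an eosinophil-associated ribonuclease gene, had 34.3 CPM in PM10/OVA/Dex, 15 in PM10/OVA, 0.331 in PM10 and 0.173 CPM in Control. It has near-identical relatives among the Ear genes, so its level is uncertain. Rnase2a was no member of the eosinophil list and lay far above it. In that list 3 of 10 measured genes were at least 2-fold higher than Control and 0 lower. The list had a median log2 ratio of 0.90 in PM10/OVA/Dex and 0.89 in PM10/OVA, and its largest ratio in PM10/OVA/Dex was 1.22.

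Macrophage genes were split. Retnla, the resistin-like protein of alternatively activated macrophages and airway epithelium, had 1906 CPM in PM10/OVA/Dex, 1857 in PM10/OVA, 242 in PM10 and 23.7 CPM in Control, an 80.4-fold difference from Control (72.9 to 88.9). Mmp12, macrophage elastase, had 214 CPM in PM10/OVA/Dex, 188 in PM10/OVA, 132 in PM10 and 5.59 CPM in Control. Both genes were at or slightly above their PM10/OVA level with the steroid. Arg1, the arginase of alternatively activated macrophages, had 5.63 CPM in PM10/OVA/Dex, 104 in PM10/OVA, 2.98 in PM10 and 2.54 CPM in Control, so that only the PM10/OVA library was high among these 4. Of the 17 measured genes of this list, 7 exceeded Control by at least 2-fold in PM10/OVA/Dex and 11 in PM10/OVA, with medians of 0.91 and 1.21 on the log2 scale.

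Marco, a scavenger receptor that binds inhaled particles, had 32.6 CPM in PM10/OVA/Dex, 20.3 in PM10/OVA, 23.8 in PM10 and 2.02 CPM in Control. Alveolar macrophage genes were at least 2-fold higher than Control in 10 of 22 and lower in 1, with a median of 0.85 in PM10/OVA/Dex and 0.49 in PM10/OVA. The lower one was Fabp4, a fatty-acid binding protein that fat also expresses, at 66.0 CPM in PM10/OVA/Dex, 23.2 in PM10/OVA, 23.3 in PM10 and 176 CPM in Control. Among 23 genes of monocytes and interstitial macrophages, 10 were higher and none lower. Gpnmb, a glycoprotein of lipid- and debris-laden macrophages, was at 118 CPM in PM10/OVA/Dex, 113 in PM10/OVA, 201 in PM10 and 14.9 CPM in Control. Ctsk, the protease cathepsin K, was at 137 CPM in PM10/OVA/Dex, 147 in PM10/OVA, 239 in PM10 and 24.2 CPM in Control. For both genes the particle-only library was the highest of these 4.

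Neutrophil-attracting and acute-phase genes were lower than in PM10/OVA but mostly not at the Control level. The list that joins chemokines for neutrophils with cytokines of the IL-1, IL-6, IL-17 and TNF families had a median log2 ratio of 0.72 in PM10/OVA/Dex and 2.13 in PM10/OVA, with 5 and 11 of 14 members at least 2-fold higher than Control. Cxcl3 had 6.14 CPM in PM10/OVA/Dex, 57.7 in PM10/OVA, 20.3 in PM10 and 0.173 CPM in Control. Cxcl5 had 6.22 CPM in PM10/OVA/Dex, 73.4 in PM10/OVA, 14.4 in PM10 and 0.231 CPM in Control. Both encode ligands of the neutrophil receptor CXCR2, and both stayed above Control, by 35.5-fold (11.7 to 176) and 27.0-fold (10.1 to 102), on only 3 and 4 counts in Control. Cxcl1, also such a ligand, had 6.31 CPM in PM10/OVA/Dex, 23.8 in PM10/OVA, 6.63 in PM10 and 0.577 CPM in Control, and Cxcl2 had 1.43 CPM in PM10/OVA/Dex, 18.5 in PM10/OVA, 5.22 in PM10 and 0.115 CPM in Control. These 4 genes were below PM10/OVA, and all but Cxcl1, which was close to its PM10 level, were also well below PM10.

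Saa3, an acute-phase serum amyloid gene made in the lung itself, had the highest ratio to Control of the acute-phase list, with 44.7 CPM in PM10/OVA/Dex, 694 in PM10/OVA, 463 in PM10 and 2.19 CPM in Control. It remained 20.4-fold above Control (14.7 to 29.1). Lcn2, the iron-sequestering protein lipocalin-2, had 462 CPM in PM10/OVA/Dex, 1390 in PM10/OVA, 980 in PM10 and 68.6 CPM in Control. Serpina3n, a secreted protease inhibitor, had 105 CPM in PM10/OVA/Dex, 311 in PM10/OVA, 123 in PM10 and 17.6 CPM in Control. All 3 lay between Control and PM10/OVA. Of the 28 measured acute-phase and complement genes, 11 were at least 2-fold higher than Control in PM10/OVA/Dex and 20 in PM10/OVA, with medians of 0.83 and 1.54. Monocyte chemokines and their receptors had medians of 0.90 in PM10/OVA/Dex and 2.70 in PM10/OVA. Ccl9 was the member farthest above Control, with 93.4 CPM in PM10/OVA/Dex, 201 in PM10/OVA, 140 in PM10 and 21.6 CPM in Control. Neutrophil genes, which besides Lcn2 include the chemokine receptor Cxcr2, had medians of 0.71 in PM10/OVA/Dex and 1.62 in PM10/OVA. Cxcr2 had 26.3 CPM in PM10/OVA/Dex, 53.9 in PM10/OVA, 19.9 in PM10 and 10.5 CPM in Control.

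**Figure D3:**
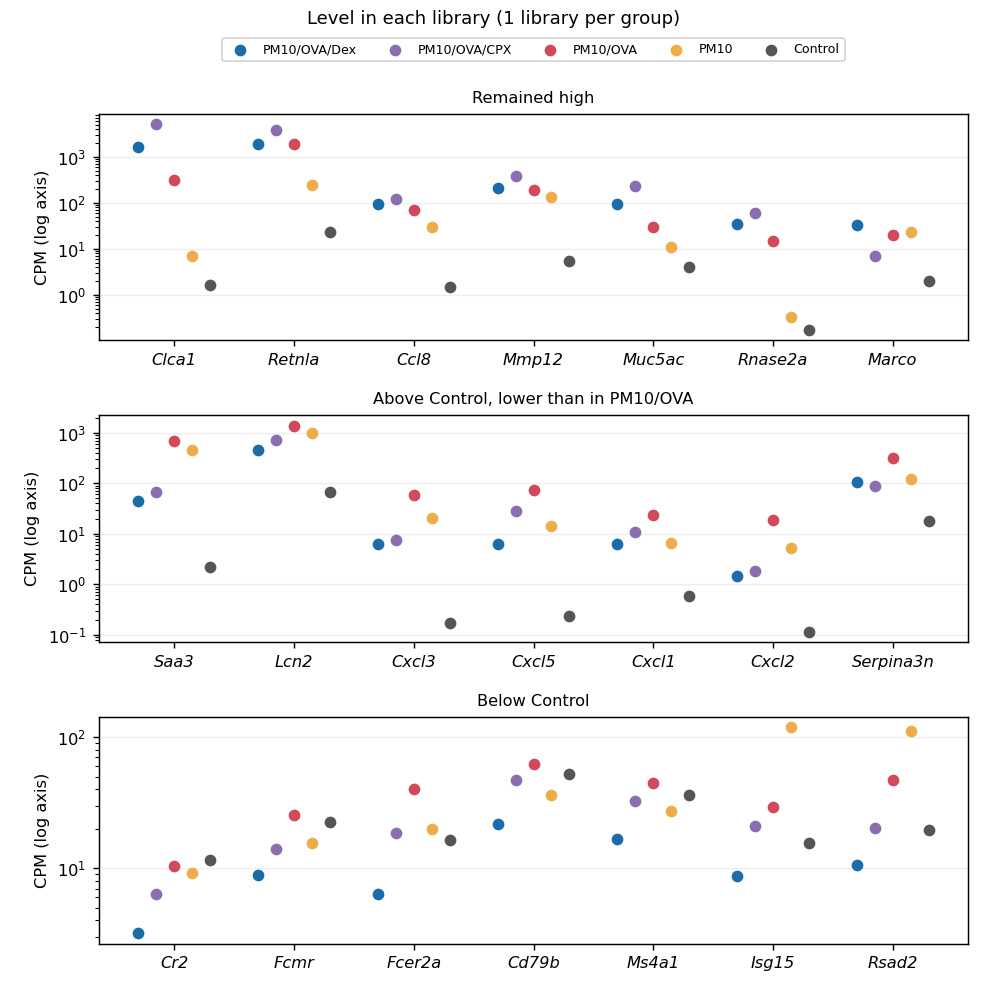
Level of 21 named genes in CPM (log axis) in the 5 libraries, 1 point per library, from PM10/OVA/Dex at the left of each gene to Control at the right. The upper panel holds genes that remained high, such as Retnla at 1906 CPM in PM10/OVA/Dex and 23.7 CPM in Control; the middle panel genes such as Saa3 that were lower than in PM10/OVA (44.7 and 694 CPM) and above Control; and the lower panel genes below Control.

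Interferon-response, B cell and cytotoxic lymphocyte genes had medians below Control, while plasma cell genes and genes of regulatory and activated T cells had medians above it. Interferon-response genes had a median log2 ratio of -0.39 in PM10/OVA/Dex and 0.35 in PM10/OVA. Of 41 measured members, 36 were below Control in PM10/OVA/Dex and 40 were below PM10/OVA, yet only Mx2 was at least 2-fold lower than Control and none was higher. Their summed level was 1098 CPM in PM10/OVA/Dex, 1861 in PM10/OVA, 5131 in PM10 and 1482 CPM in Control, so the particle-only library was the highest by far. Mx2, an interferon-induced GTPase, had 1.26 CPM in PM10/OVA/Dex, 3.03 in PM10/OVA, 21.1 in PM10 and 4.27 CPM in Control. Isg15, a ubiquitin-like modifier, had 8.75 CPM in PM10/OVA/Dex, 29.3 in PM10/OVA, 119 in PM10 and 15.6 CPM in Control. Rsad2 (viperin), an antiviral enzyme, had 10.6 CPM in PM10/OVA/Dex, 47.0 in PM10/OVA, 112 in PM10 and 19.4 CPM in Control. For Mx2, Isg15 and Rsad2 alike, PM10/OVA/Dex was the lowest and PM10 the highest of the 4 libraries.

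B cell genes were at least 2-fold lower than Control in 7 of 18, with none higher, and their median log2 ratio was -0.93 in PM10/OVA/Dex and 0.25 in PM10/OVA. Cr2, the complement receptor CD21 of B cells and follicular dendritic cells, had 3.20 CPM in PM10/OVA/Dex, 10.5 in PM10/OVA, 9.28 in PM10 and 11.5 CPM in Control. It was 3.61-fold lower than in Control (2.54 to 5.25). Fcmr, the IgM receptor, had 8.83 CPM in PM10/OVA/Dex, 25.4 in PM10/OVA, 15.5 in PM10 and 22.6 CPM in Control. Cd79b, a subunit of the B cell receptor, had 21.9 CPM in PM10/OVA/Dex, 62.1 in PM10/OVA, 36.4 in PM10 and 51.9 CPM in Control. Each of these had its lowest level in the library with the steroid. Fcer2a, the low-affinity IgE receptor, was the only gene at least 2-fold higher than Control in PM10/OVA and at least 2-fold lower in PM10/OVA/Dex, at 6.39 CPM in PM10/OVA/Dex, 40.1 in PM10/OVA, 19.8 in PM10 and 16.4 CPM in Control.

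Plasma cell genes did not follow the B cell genes. Jchain, the joining chain of secreted IgA and IgM, had 377 CPM in PM10/OVA/Dex, 74.4 in PM10/OVA, 44.5 in PM10 and 49.6 CPM in Control, 7.61-fold higher than in Control (7.07 to 8.19). Pigr, the epithelial receptor that carries such antibodies into the lumen, had 634 CPM in PM10/OVA/Dex, 576 in PM10/OVA, 424 in PM10 and 130 CPM in Control. Pigr was no member of the plasma cell list, in which Jchain had the largest ratio to Control. Over the 15 measured plasma cell genes, however, only 2 were at least 2-fold higher, and the median was 0.38 in PM10/OVA/Dex and 0.37 in PM10/OVA. Among 14 genes of cytotoxic T and natural killer cells, 12 were below Control and 2, Txk and Gzmb, at least 2-fold. Gzmb, granzyme B, had 2.61 CPM in PM10/OVA/Dex, 9.15 in PM10/OVA, 7.46 in PM10 and 6.80 CPM in Control. The list's median was -0.59 in PM10/OVA/Dex and 0.11 in PM10/OVA. Of 21 T cell genes, 2 were at least 2-fold lower, Cd8b1 and Ccr7. All 21 were below their PM10/OVA level, against 23 of 28 housekeeping genes. Genes of regulatory and activated T cells were above Control in 10 of 15, with 3 at least 2-fold higher, 2 lower and a median of 0.44 in PM10/OVA/Dex and 0.83 in PM10/OVA. Among them Pdcd1, the checkpoint receptor PD-1, had 5.89 CPM in PM10/OVA/Dex, 2.40 in PM10/OVA, 3.89 in PM10 and 0.634 CPM in Control.

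**Figure D4:**
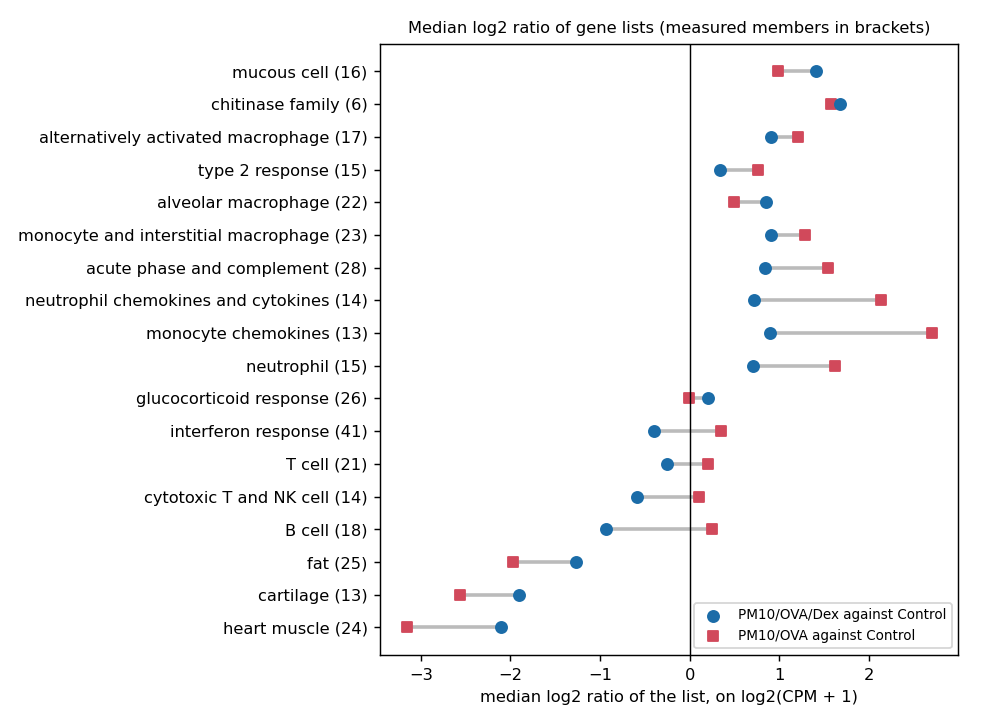
Median log2 ratio on log2(CPM + 1) of 18 gene lists for PM10/OVA/Dex against Control (circles) and PM10/OVA against Control (squares), which share the Control library; the number of measured genes is in brackets. The circle lies right of the square for mucous cell genes (1.41 and 0.99), left of it for neutrophil chemokines and cytokines (0.72 and 2.13), and below 0 for B cell genes (-0.93).

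Known glucocorticoid-response genes were mostly near Control. Of 26 measured members, 4 were at least 2-fold higher and none lower, the median log2 ratio was 0.20 in PM10/OVA/Dex and -0.01 in PM10/OVA, and 18 of the 26 were above their PM10/OVA level. Cdkn1a, the cell cycle inhibitor p21, had 119 CPM in PM10/OVA/Dex, 71.7 in PM10/OVA, 61.3 in PM10 and 30.2 CPM in Control. Fkbp5, a chaperone that dampens the glucocorticoid receptor, had 34.7 CPM in PM10/OVA/Dex, 27.1 in PM10/OVA, 24.9 in PM10 and 14.9 CPM in Control, 2.33-fold above Control (1.99 to 2.74). In both genes Control was the lowest and PM10/OVA/Dex the highest of the 4 libraries. Angptl4, a lipoprotein lipase inhibitor, was 2.57-fold above Control (2.29 to 2.89). Il1r2, the decoy receptor for interleukin-1, had 3.20 CPM in PM10/OVA/Dex, 10.2 in PM10/OVA, 4.22 in PM10 and 0.634 CPM in Control.

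The other glucocorticoid-response members lay within 2-fold of Control. Tsc22d3 (GILZ), a transcriptional regulator induced by glucocorticoids, had 413 CPM in PM10/OVA/Dex, 278 in PM10/OVA, 481 in PM10 and 355 CPM in Control. Zbtb16, a zinc-finger repressor, had 21.2 CPM in PM10/OVA/Dex, 6.31 in PM10/OVA, 15 in PM10 and 25.9 CPM in Control, and Pdk4, which restrains glucose oxidation, had 28.3 CPM in PM10/OVA/Dex, 10.7 in PM10/OVA, 20.4 in PM10 and 29.1 CPM in Control. In these 3 genes PM10/OVA/Dex was above PM10/OVA and close to Control. Heart muscle and fat genes were highest in Control, and the part of such tissue in these levels was not tested. Cebpb and Cebpd, transcription factors of the acute-phase response, had log2 ratios of 0.86 and 0.84 against Control, and Anxa1, the anti-inflammatory protein annexin A1, 0.57. Hif3a was at 0.38, Map3k6 at 0.32, Mertk at 0.26, Tfcp2l1 at 0.23 and Ddit4 at 0.21. Klf9 was at 0.19, Errfi1 at 0.17, Nfkbia, Sgk1 and Cd163 at 0.15 each, and Glul at 0.08. Slightly under Control were Per1 at -0.04, Dusp1 at -0.08, Sgk3 at -0.18, Ccnd2 at -0.30 and Nr3c1, the glucocorticoid receptor itself, at -0.43.

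A smaller set of genes differed from Control in PM10/OVA/Dex while lying within 0.32 of Control on the log2 scale in PM10/OVA: 14 of the 225 higher genes (6.22%) and 30 of the 288 lower genes (10.4%). Klf10, a transcription factor induced by TGF-beta, had 97 CPM in PM10/OVA/Dex, 36.8 in PM10/OVA, 43.0 in PM10 and 36.7 CPM in Control, 2.64-fold above Control (2.40 to 2.92). Reg3g, an antimicrobial lectin of airway epithelium, had 244 CPM in PM10/OVA/Dex, 143 in PM10/OVA, 80.5 in PM10 and 118 CPM in Control. Bpifb1, a secreted airway protein found with mucus, had 308 CPM in PM10/OVA/Dex, 127 in PM10/OVA, 65.3 in PM10 and 152 CPM in Control. Each was highest of the 4 libraries with the steroid. Bpifb1 is itself on the upper airway list, whose summed level was 1232 CPM in PM10/OVA/Dex and 1995 CPM in Control, and the part of upper airway tissue in these differences was not tested. On the lower side, besides Cr2, Fcmr and Cd79b, stood Gbp4, an interferon-induced guanylate-binding protein, with 75.2 CPM in PM10/OVA/Dex, 192 in PM10/OVA, 200 in PM10 and 172 CPM in Control. Col15a1, a basement-membrane collagen, had 17.2 CPM in PM10/OVA/Dex, 30.5 in PM10/OVA, 33.8 in PM10 and 38.3 CPM in Control.

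In 4 genes PM10/OVA was at least 2-fold lower and PM10/OVA/Dex at least 2-fold higher than Control. They were Hspa1a and Hspa1b, the inducible HSP70 chaperones, with Bpifa6 and Clca3b, and were picked out after their values had been seen. Hspa1b had 188 CPM in PM10/OVA/Dex, 7.82 in PM10/OVA, 71.7 in PM10 and 44.4 CPM in Control, and Hspa1a had 136 CPM in PM10/OVA/Dex, 6.31 in PM10/OVA, 50.7 in PM10 and 36.7 CPM in Control. The HSP70 genes are near-identical in sequence and may not be separate values. Their co-chaperone Dnajb1 had 171 CPM in PM10/OVA/Dex, 53.0 in PM10/OVA, 103 in PM10 and 67.9 CPM in Control.

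Structural cells of the lung varied by list. None of the 20 alveolar type 1 genes, 29 endothelial genes and 22 ciliated cell genes reached 2-fold in either direction, and their medians were -0.16, 0.00 and -0.10. Smooth muscle genes were below Control in all 18, with 1 at least 2-fold lower and a median of -0.49 in PM10/OVA/Dex and -0.72 in PM10/OVA, and 17 of the 18 were highest in the Control library. Fibroblast genes were below Control in 20 of 26, with 2 at least 2-fold lower and a median of -0.23 in PM10/OVA/Dex and -0.58 in PM10/OVA. Of 39 collagen and matrix genes, 1 was at least 2-fold higher, the crosslinking enzyme Lox, and 3 were lower, Thbs2, Lum and Col15a1, with a median of -0.03. Of the 39, 16 were above Control and 23 below it. Eln, elastin, was named outside the rule and did not follow the list median. It had 291 CPM in PM10/OVA/Dex, 286 in PM10/OVA, 303 in PM10 and 152 CPM in Control, so that Control was the low library for this gene. Among alveolar type 2 genes, Sftpd, the collectin surfactant protein D, had 1380 CPM in PM10/OVA/Dex, 1520 in PM10/OVA, 1168 in PM10 and 523 CPM in Control. Scd1, the fatty-acid desaturase, had 690 CPM in PM10/OVA/Dex, 798 in PM10/OVA, 883 in PM10 and 1663 CPM in Control, and Fasn, fatty-acid synthase, had 392 CPM in PM10/OVA/Dex, 391 in PM10/OVA, 423 in PM10 and 926 CPM in Control. Fat also expresses Scd1 and Fasn, and its genes were highest in the Control library; their part in this difference was not tested.

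**Figure D5:**
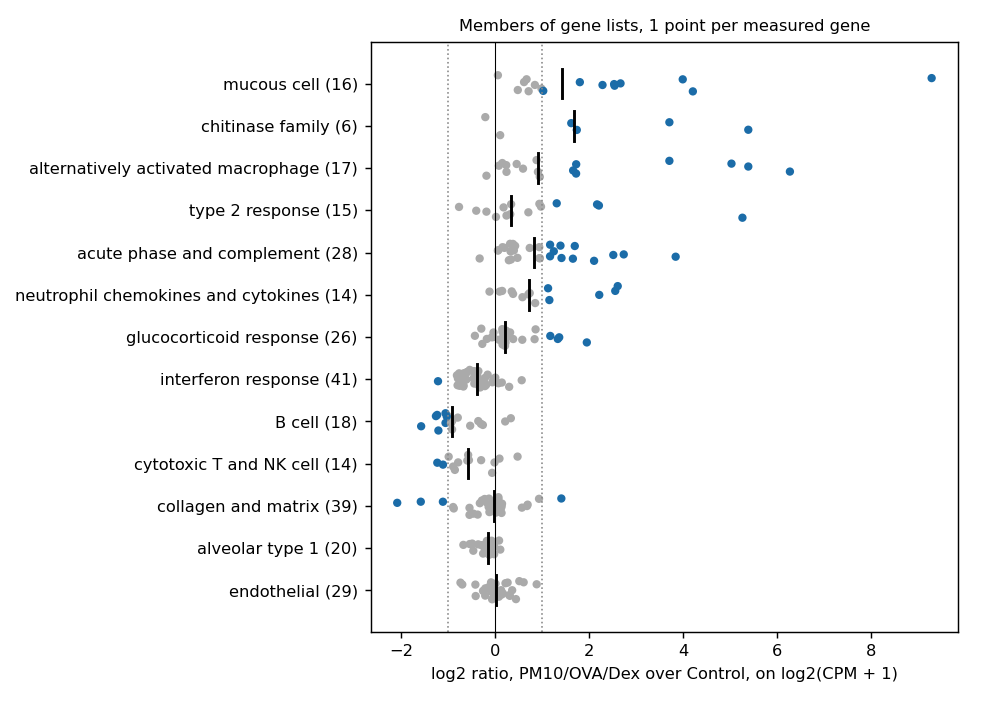
Log2 ratio of PM10/OVA/Dex over Control (x axis) for every measured gene of 13 lists, 1 point per gene; black bars mark list medians, dotted lines the 2-fold limits, and genes past them are blue. Mucous cell genes reach 9.29 with Clca1, while most interferon-response genes lie between 0 and -1, and no alveolar type 1 or endothelial gene passes a limit.

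Many of the lowest ratios belonged to genes of heart and cartilage, and fat genes were also low as a list. Heart muscle genes were at least 2-fold lower than Control in 23 of 24, with a median log2 ratio of -2.10 in PM10/OVA/Dex and -3.16 in PM10/OVA. Nppa, the atrial natriuretic peptide precursor, had 19.8 CPM in PM10/OVA/Dex, 1.07 in PM10/OVA, 4.64 in PM10 and 595 CPM in Control, 30.1-fold lower than in Control (26.4 to 34.4). Bmp10, a growth factor of the atria, had 0 counts in PM10/OVA/Dex and 154 in Control. With 3 counts set for the 0 it was 35.2-fold lower, and the exact interval began at 28.3-fold. Col10a1 and Col2a1, collagens of cartilage, were 10.1-fold (8.10 to 12.8) and 8.46-fold (5.71 to 13) lower. Cartilage genes had medians of -1.91 in PM10/OVA/Dex and -2.56 in PM10/OVA, with 9 of 13 at least 2-fold lower, and fat genes -1.27 and -1.97, with 17 of 25. The cartilage median in PM10/OVA/Dex was -0.61 with a mean of at least 5 CPM and -0.99 with a pseudocount of 5 CPM. Cyp26b1, which breaks down retinoic acid, was no member of these lists and had 24.6 CPM in PM10/OVA/Dex, 40.4 in PM10/OVA, 15.2 in PM10 and 364 CPM in Control, 14.8-fold lower (13.1 to 16.7). The part that tissue carried along with the Control lung had in these differences was not tested.

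Promoter windows were found for 125 of the 168 genes that remained at least 2-fold higher, 223 of the 286 that did not, and 10809 of the 14305 measured genes. The STAT6-type motif printed above for Retnla and Ccl17 was in 16 of the 125 (12.8%), 20 of the 223 (8.97%) and 6.35% of all measured genes. The NF-kappaB type motif of the chemokine genes was in 13 (10.4%), 11 (4.93%) and 2.04%, and the interferon type motif in 5 (4%), 23 (10.3%) and 3.87%. The glucocorticoid-receptor type motif was in 1 gene of each group. These shares describe the windows and were not tested.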

How the data were processed

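RNA of whole lung was sequenced in 5 libraries, 1 per group. Trizol extraction and the strand-keeping NEBNext Ultra II Directional kit, starting from 1.3 ug of RNA, were used per the labels' protocols. TopHat and the mm10 build are named per the submitters' processing notes. Not given in the sources used here are the aligner's version, the counting tool, its annotation and its strand setting, so near-identical, overlapping and antisense genes are uncertain. The authors deposited raw counts per gene symbol, as whole numbers without normalization; 0 columns belonged to other samples, and 4774 symbols were at 0 in all 5 libraries.

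From these counts, TMM factors (edgeR 4.0.16 in R 4.3.3) gave CPM, with factors from 0.989 to 1.02. Ratios were taken on log2(CPM + 1), with a pseudocount of 1 CPM, which understates differences of low genes. Folds quoted for single genes leave out the pseudocount and carry exact Clopper-Pearson 95% intervals from the counts (scipy 1.17.1). A count of 0 was set to 3 counts for a bound. Intervals and floors cover counting error only. With 1 library per group there is no p-value. Coordinates are those of GENCODE M21 on GRCm38, the assembly named mm10, and promoters those of RefSeq on GRCm38.p6. The main steps were tested on simulated data with counting error only, so that test does not cover variation between lungs.

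Members and the 57 gene lists were chosen with earlier results of these data known. Genes were named by rule: the 15 highest and 15 lowest ratios outside predicted models, clones, small RNAs and receptor segments; up to 6 members with the largest ratio in a list, and every glucocorticoid-response gene; the 10 genes farthest beyond PM10/OVA and the 10 nearest to Control; and the 10 highest and 10 lowest among genes within 0.32 on the log2 scale between PM10/OVA and Control. The 5 list members nearest to the 2-fold limit were not named. Where many genes met the rule, a selection is given. Genes outside it, such as Arg1, Eln and Dnajb1, were picked by hand and need not follow a list. Alternatives were DESeq2 1.42.0 size factors, library totals, upper-quartile factors, pseudocounts of 0.25 and 5 CPM, no filter, a mean of at least 5 CPM, and removal of a trend on transcript length.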

Additional observations from a re-analysis of the deposited data

How the results depend on the processing

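The counts of 225 higher and 288 lower genes, and of 168 and 207 that remained, stayed within 1.5 times under other scalings, a pseudocount of 0.25 CPM, no filter on low counts and removal of the length trend. With a pseudocount of 5 CPM they were 112 higher and 120 lower, of which 82 and 109 were also past 2-fold in PM10/OVA. With a mean of at least 5 CPM the lower genes numbered 159, with 118 remaining. A larger pseudocount shrinks ratios of low genes by construction, and the stricter filter tests 11994 genes. Leaving out the heart, fat, cartilage and skeletal muscle lists, chosen after seeing the data, gave 236 lower genes. No list median past 0.1 changed sign, and 60 of 456 recomputed list medians moved by 0.1 or more on the log2 scale. The 63 genes named by their rank were recomputed only with other scalings and pseudocounts. A pseudocount shared by both libraries cannot change a sign, and the scaling factors differed little. The sign of such a gene at least 2-fold from Control could therefore not change, and its constancy is no check. Of the medians given for PM10/OVA/Dex, some moved by over 1.5 times. With a pseudocount of 5 CPM, acute-phase genes were at 0.41, neutrophil chemokines and cytokines at 0.35, monocyte chemokines at 0.46, plasma cell genes at 0.25, regulatory and activated T cell genes at 0.21 and cartilage genes at -0.99. With a mean of at least 5 CPM, mucous genes were at 2.28, neutrophil chemokines and cytokines at 1.12, type 2 genes at 0.70 and cartilage genes at -0.61. With no filter, mucous genes were at 0.91 and plasma cell genes at 0.24. With the length trend removed, neutrophil genes were at 0.43 and ciliated cell genes at -0.23. Before its removal, log2 ratios against Control fell with transcript length. Spearman's rho was -0.26 for PM10/OVA/Dex and -0.30 for PM10/OVA, and the cause of this trend was not tested. The alternatives change the genes counted or the weight of low genes; the cause of each move was not tested. Depth limits low genes: Cxcl2 had 17 counts in PM10/OVA/Dex and 2 in Control. Each library is 1 sample, so the spread between lungs is unknown. No paired analysis was possible because each group had 1 library.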

Other observations

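Further genes lay beyond their PM10/OVA level in the library with the steroid. Slpi, a secreted inhibitor of leukocyte proteases, had 138 CPM in PM10/OVA/Dex, 64.9 in PM10/OVA, 52.5 in PM10 and 19.5 CPM in Control. Gp2, a surface glycoprotein of the epithelial cells that sample antigen, had 16.9 CPM in PM10/OVA/Dex, 3.60 in PM10/OVA, 2.65 in PM10 and 0.692 CPM in Control. Vnn1, a pantetheinase, had 37.3 CPM in PM10/OVA/Dex, 19.1 in PM10/OVA, 30.6 in PM10 and 6.17 CPM in Control. Scgb3a1, a secretoglobin of large airways, had 929 CPM in PM10/OVA/Dex, 244 in PM10/OVA, 166 in PM10 and 360 CPM in Control. All 4 were highest, among these libraries, with the steroid. Upper airway genes, which summed to 1232 CPM in PM10/OVA/Dex, 452 in PM10/OVA, 347 in PM10 and 1995 CPM in Control, were, like Scgb3a1, higher in PM10/OVA/Dex and Control than in the other exposed libraries named here, and their part in its level was not tested.

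Signals of the TGF-beta family were mixed. Of 30 measured genes, 3 were at least 2-fold higher than Control and none lower, with a median log2 ratio of 0.02. They were Fst, which encodes the activin antagonist follistatin, and the activin subunit genes Inhba and Inhbb. Fst had 12.5 CPM in PM10/OVA/Dex, 6.25 in PM10/OVA, 2.40 in PM10 and 2.54 CPM in Control. Inhba had 5.80 CPM in PM10/OVA/Dex, 11.8 in PM10/OVA, 13.3 in PM10 and 2.08 CPM in Control. Follistatin was therefore highest with the steroid, and Inhba in the exposed libraries without it.

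Among 34 cell cycle genes, 1 was at least 2-fold higher than Control in PM10/OVA/Dex and 4 in PM10/OVA, with medians of 0.20 and 0.63. Rrm2, the small subunit of ribonucleotide reductase, had 4.46 CPM in PM10/OVA/Dex, 10.1 in PM10/OVA, 16.2 in PM10 and 4.50 CPM in Control. Of 19 circadian genes, 15 were within 2-fold of Control in PM10/OVA/Dex, 2 were higher and 2 lower, with a median of -0.37 in PM10/OVA/Dex and -0.73 in PM10/OVA. Dbp, a clock output factor, had 69.5 CPM in PM10/OVA/Dex, 61.4 in PM10/OVA, 99 in PM10 and 164 CPM in Control, and Arntl, the core clock activator, had 8.66 CPM in PM10/OVA/Dex, 9.15 in PM10/OVA, 5.47 in PM10 and 3.40 CPM in Control.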
